A study of Homo sapiens with 6 samples.

Results

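The 10 scavenger receptor genes MARCO, MSR1, SCARA3, SCARA5, COLEC12, CD36, SCARB1, SCARB2, OLR1 and STAB1 were read from a table of RNA-seq counts with 57820 genes. MARCO was chosen by its high log2 fold change in the comparison described here, and the other 9 receptors were taken from its wider family with results of the same libraries known. The values of all 10 receptors are therefore descriptions, with no p-value, and whether a receptor passed the rule used for calls over all genes is stated without being evidence for it. Polyadenylated RNA had been sequenced as paired reads of 75 bases in 6 libraries from J82 cells, an established line of human bladder cancer that was grown in DMEM with fetal bovine serum. By their labels 3 libraries were controls, which per the study's methods carried a vector, and 3 were FOXC1 KO. The KO cells had received the lentiCRISPR v2 vector, which carries Cas9 and 1 guide RNA against the forkhead transcription factor gene FOXC1, and had been selected with puromycin. The study's methods speak of knockout clones, but the number of clones behind the 3 libraries was not given in the sources used here. Nothing states that the libraries came from separate cultures, so p-values measure the spread between these libraries only, which may be technical.

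Library totals were 22900531 to 25013311 counts in the control group and 18408134 to 25350908 counts in the KO group. Levels are given as CPM, the count of a gene divided by its library's scaled total in units of 1e+06. The transcript of the targeted gene was not reduced. FOXC1 was at 18.4, 16.9 and 19.3 CPM in the control libraries. In the libraries labelled FOXC1 KO it was at 24.1, 22.2 and 21.1 CPM. Its log2 fold change was 0.30 (SE 0.091), with an edgeR adjusted p of 0.0127, under the fold threshold of 1.3 used for a call. The study checked its knockout clones by Western blotting and reports less FOXC1 protein in the J82 knockout cells. A transcript level does not measure protein. FOXC1 protein is not part of the data used here, so every direction below is that of the libraries labelled FOXC1 KO. Keratins of an epithelial line were abundant, with KRT8 at 1658 CPM and KRT7 at 992 CPM in the control group. Uroplakins, the surface proteins of differentiated urothelium, were near 0, and the highest of them, UPK2, averaged 0.136 CPM.

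Scavenger receptors are membrane proteins that bind modified lipoproteins, polyanions, microbes and cell debris and carry them into the cell. Class A receptors such as MARCO and MSR1 are trimers with a collagen-like stalk and are best known from macrophages, where MARCO takes up bacteria and particles. Class B receptors span the membrane at both ends and handle lipids, and OLR1, a C-type lectin of class E, binds oxidised low density lipoprotein (LDL). STAB1, of class H, is known from sinusoidal endothelium and from macrophages.

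Promoter windows of 250 bases before to 50 bases after the RefSeq start site (assembly GRCh38.p14) were given for 5 of the 10 receptors, namely MARCO, COLEC12, CD36, SCARB2 and STAB1. Windows for MSR1, SCARA3, SCARA5, SCARB1 and OLR1 were not used here. FOXC1 is a forkhead factor, so the windows were searched on both strands for the forkhead core GTAAAC and for its relatives TAAACA and also CAAACA. The windows of MARCO, of CD36 and of SCARB2 are shown because their transcripts were respectively higher, lower and not called in the libraries labelled FOXC1 KO. They lie at chr2:118941944-118942243 on the plus strand, chr7:80623842-80624141 on the plus strand and chr4:76213775-76214074 on the minus strand. Each is written 5′ to 3′ on the strand of its gene, and capitals mark a forkhead core on either strand.
MARCO: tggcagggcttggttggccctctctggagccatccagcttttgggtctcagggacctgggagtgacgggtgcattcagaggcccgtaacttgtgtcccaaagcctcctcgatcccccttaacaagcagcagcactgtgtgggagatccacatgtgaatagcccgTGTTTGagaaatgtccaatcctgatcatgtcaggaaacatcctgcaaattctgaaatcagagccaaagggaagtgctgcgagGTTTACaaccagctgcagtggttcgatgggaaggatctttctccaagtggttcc
CD36: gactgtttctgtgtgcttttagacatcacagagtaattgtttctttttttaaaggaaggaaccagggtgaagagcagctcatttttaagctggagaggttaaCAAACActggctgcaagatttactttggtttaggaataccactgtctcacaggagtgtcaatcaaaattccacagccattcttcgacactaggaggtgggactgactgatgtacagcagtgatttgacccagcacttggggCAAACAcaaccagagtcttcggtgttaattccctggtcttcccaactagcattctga
SCARB2: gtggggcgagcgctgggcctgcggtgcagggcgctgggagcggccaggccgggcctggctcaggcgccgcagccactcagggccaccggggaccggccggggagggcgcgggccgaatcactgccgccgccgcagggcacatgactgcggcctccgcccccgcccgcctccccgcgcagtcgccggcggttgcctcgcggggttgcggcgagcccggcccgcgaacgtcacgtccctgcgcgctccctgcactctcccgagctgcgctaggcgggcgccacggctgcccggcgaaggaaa

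The MARCO window held 1 match to GTAAAC, starting 4 bases before the start site and lying on the opposite strand. It also held 1 match to CAAACA, starting 86 bases before the start site and likewise lying on the opposite strand. Of 35116 windows in the table, 7.2% held GTAAAC, 12.32% held TAAACA, 14.91% held CAAACA and 27.17% held at least 1 of these overlapping cores. CD36 had 6 windows for its alternative start sites, and only the 1 printed above held a core, with CAAACA at 148 and at 7 bases before the start. It was picked for printing because it held them. No core was in the windows of COLEC12, SCARB2 or STAB1. The element TGACNNNGC, the core bound by NRF2, was in 13.35% of all windows and, among those of the receptors, in the printed window of CD36 alone. GC content differed widely, with 53.0% in the MARCO window, 35.0% to 43.7% in those of CD36 and 79.3% in that of SCARB2, against a median of 58.7% over all windows. A match is a description of these letters and not a binding site, and FOXC1 binding was not measured here.

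Of the 10 receptors, 6 had enough counts to enter the comparison, namely MARCO, SCARA3, CD36, SCARB1, SCARB2 and OLR1. A gene was called when its edgeR adjusted p was under 0.05 and its fold change was over 1.3. By that rule 1 receptor was higher in the libraries labelled FOXC1 KO, where 7.57% of all 15647 genes tested were called higher, and 2 were lower, where 8.39% were called lower. Control and KO libraries were fully separate for 5 of these 6 receptors, against 41.3% of all genes tested. Their median log2 fold change was -0.24, beside -0.00084 over all genes tested. Nothing is read from these counts, since the receptors were selected on results of this comparison.

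**Figure D1:**
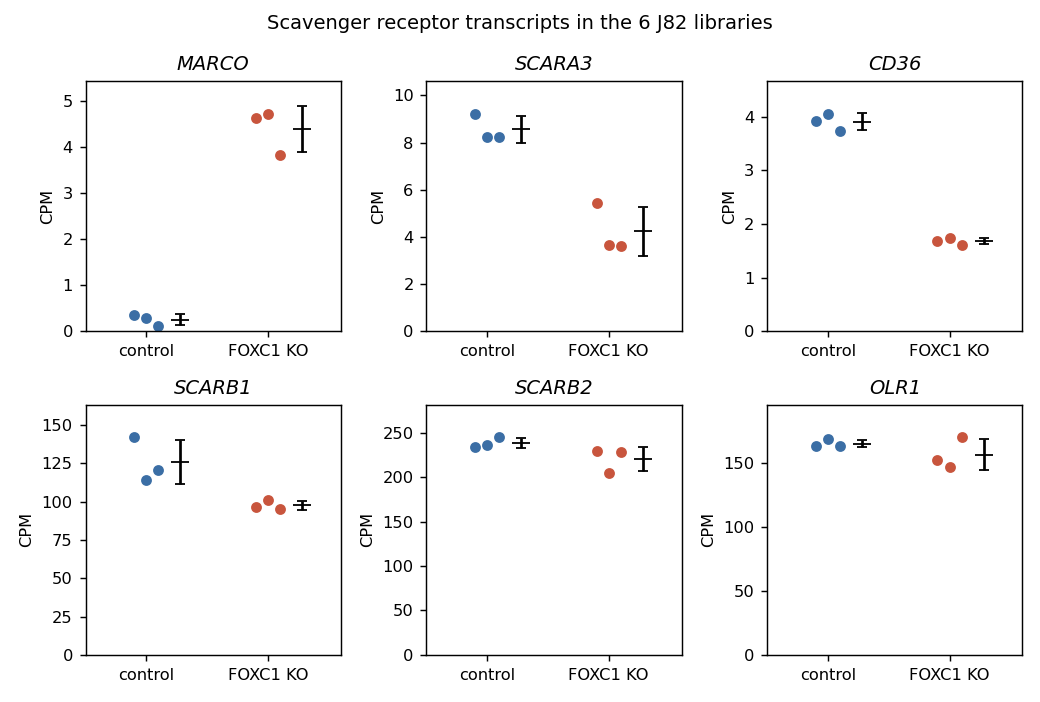
CPM of the 6 scavenger receptors with enough counts, 1 panel per gene with its own axis from 0. Points are libraries (3 control in blue, 3 FOXC1 KO in red), and the bar beside them is the mean ± SD. MARCO lies between 3.82 and 4.72 CPM in the KO libraries and at most at 0.357 CPM in the control libraries, whereas SCARA3 and CD36 are lower in the KO libraries and the OLR1 values overlap.

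MARCO (ENSG00000019169.9, chr2:119699770-119752236 on the plus strand of GRCh37), the class A receptor with a collagenous stalk, was close to the limit of detection in the control group. It had 8, 7 and 3 counts in the control libraries and 85, 119 and 90 counts in the libraries labelled FOXC1 KO. These corresponded to 0.357, 0.287 and 0.118 CPM against 4.62, 4.72 and 3.82 CPM. The lowest KO library was far above the highest control library, and within each group the third replicate was the lowest. Means were 0.254 ± 0.123 CPM and 4.39 ± 0.490 CPM (SD, n = 3), and the log2 fold change was 4.11 (SE 0.26). Over the pooled libraries 18 counts stood against 294, a ratio of 17.6 with an exact 95% interval of 10.9 to 30.1 that covers counting error only. This placed MARCO at rank 14 of 15647 by log2 fold change. All 3 control libraries were under the 0.419 CPM that a gene needed in 3 libraries, so MARCO entered the comparison through the KO group and had to differ. In bulk RNA, more cells with the transcript and more transcript per cell cannot be told apart.

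The other class A receptors were at or near 0 with the exception of SCARA3. MSR1, the founding macrophage scavenger receptor, had 0 counts in all control libraries and 2, 1 and 1 counts in the KO libraries. All of these were under the floor of 3 counts per library, and no fold is given. SCARA5, a ferritin receptor, had 0 counts in all 6 libraries. A count of 0 is an upper limit of 3 counts, or 0.118 to 0.163 CPM across the libraries. COLEC12, a collectin that binds carbohydrates and oxidised LDL, had 3, 7 and 2 counts against 2, 3 and 5 counts, and its groups overlapped at 0.166 ± 0.108 and 0.147 ± 0.0572 CPM (SD, n = 3). A difference between the groups was thus not detectable at this depth for MSR1, SCARA5 or COLEC12.

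SCARA3, a class A member described as a protector against oxidative stress, moved the other way. It had 207, 201 and 210 counts in the control libraries and 100, 92 and 85 counts in the libraries labelled FOXC1 KO. In CPM these were 9.23, 8.23 and 8.25 against 5.43, 3.65 and 3.61, so the groups did not overlap, and KO replicate 1 was the nearest to the controls. The means were 8.57 ± 0.568 and 4.23 ± 1.04 CPM (SD, n = 3). On the log2 scale the change was -1.04 (SE 0.14), and SCARA3 was called lower.

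Among the class B receptors, CD36, which takes up long-chain fatty acids and oxidised LDL, was called lower. Its counts were 88, 99 and 95 in the control libraries and 31, 44 and 38 in the KO libraries. The CPM values were 3.92, 4.05 and 3.73 against 1.68, 1.74 and 1.61, and the spread within each group was small beside the gap between them. The log2 fold change was -1.21 (SE 0.17), from 3.90 ± 0.161 to 1.68 ± 0.0651 CPM (SD, n = 3). 

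SCARB1, the receptor for high density lipoprotein that mediates selective uptake of cholesteryl esters, was not called because its fold change stayed under 1.3. It was at 142, 114 and 121 CPM in the control libraries and at 96.8, 101 and 95.4 CPM in the KO libraries. The groups did not overlap, and control replicate 1 stood above the rest. The log2 fold change was -0.36 (SE 0.078), close enough to the threshold that leaving out control replicate 2, control replicate 3 or KO replicate 2 turned it into a call, at -0.43, -0.39 and -0.39 respectively. SCARB2, known as LIMP-2, is a protein of the lysosomal membrane that carries glucocerebrosidase to the lysosome. It was at 234, 236 and 245 CPM against 229, 205 and 228 CPM, with a log2 fold change of -0.11 (SE 0.069), and was not called. Its groups were separate but close.

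OLR1, also named LOX-1, was likewise not called. Its values were 163, 168 and 163 CPM in the control libraries and 152, 147 and 170 CPM in the libraries labelled FOXC1 KO, and the groups overlapped. The log2 fold change was -0.08 (SE 0.071), from 165 ± 3.03 to 156 ± 11.9 CPM (SD, n = 3). STAB1, the class H receptor, had 0 counts in the control libraries and 0, 1 and 0 counts in the KO libraries, under the floor in all 6.

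Per kilobase of the canonical transcript, the order of the levels in the control group was OLR1 at 67.1, SCARB2 at 50.8, SCARB1 at 36.9, SCARA3 at 2.26, CD36 at 0.849 and MARCO at 0.140 CPM per kb. The receptors thus fell into an abundant set of 3 and a scarce set of 3. In the libraries labelled FOXC1 KO the abundant set held its order, with OLR1 at 63.6, SCARB2 at 47.0 and SCARB1 at 28.7 CPM per kb. The scarce set was reordered, with MARCO at 2.42, SCARA3 at 1.12 and CD36 at 0.366 CPM per kb. No neighbouring receptors overlapped over the 3 libraries of either group. MARCO in the KO group remained far under the 3 abundant receptors, as its highest library had 2.61 CPM per kb and the lowest SCARB1 library had 28.02 CPM per kb. These levels rest on 1 transcript per gene and would shift where J82 uses another isoform.

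MARCO lies on chromosome 2, and 23 other annotated genes have their lower coordinate within 1 Mb of that of MARCO. Distances are given between lower coordinates, which for genes on the minus strand are not the start. Of the 13 with at least 10 counts in all, 11 entered the comparison, of which 2 were called higher, beside 7.57% of all genes tested, 1 was called lower, beside 8.39%, and 8 were not called. Among the higher genes, ENSG00000259094 is a long non-coding RNA gene of 2 exons that lies inside MARCO, on the minus strand. It had 0 counts in all 3 control libraries and 8, 15 and 10 counts in the libraries labelled FOXC1 KO, which is at least 3.88-fold higher when the controls are set to the floor of 3 counts per library. As with MARCO, this gene entered the comparison through the KO group only, so that it had to differ. Its exons shared 0 bases with the exons of MARCO in GENCODE 44, but the strand setting of the counting is not given in the sources used here, so its reads cannot be told apart from unspliced reads of MARCO.

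STEAP3, a metalloreductase that serves iron uptake from transferrin, starts 282 kb from MARCO and was the other gene called higher. It was at 60.8, 51.3 and 53.4 CPM in the control libraries and at 118, 117 and 110 CPM in the KO libraries. The log2 fold change was 1.06 (SE 0.077), with an adjusted p of 6.48e-12. TMEM37, a calcium channel gamma-like subunit that starts 488 kb away, was lower by a log2 fold change of -1.28 (SE 0.32). Its edgeR adjusted p was 0.00297, with means of 1.17 and 0.476 CPM. KO replicate 2 was at 0.357 CPM, under the 0.419 CPM needed in 3 libraries. TMEM37 thus entered the comparison through the control group, where it was higher, and its adjusted p is a description only. DBI, which encodes an acyl-CoA binding protein 425 kb away, was at 661 ± 26.4 and 515 ± 18.03 CPM (SD, n = 3), and its log2 fold change of -0.36 (SE 0.069) was under the fold threshold. DBI was called without control replicate 1 and without KO replicate 1, at -0.39 each.

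The nearest tested gene on the other side of MARCO was EN1, a homeobox factor at -100.02 kb, with a log2 fold change of -0.22 (SE 0.14). LINC01956 had -0.28 (SE 0.23), INSIG2, a regulator of sterol synthesis, had -0.20 (SE 0.084) and C2orf76 had -0.06 (SE 0.12), and none was called. TMEM177 at -0.07 (SE 0.10), PTPN4 at 0.01 (SE 0.094) and STEAP3-AS1 at 0.82 (SE 0.45) were not called either. STEAP3-AS1 had few counts, and its value lay at 0.36 without control replicate 1 and at 1.36 without control replicate 2. Its control replicates 1 and 3 were at 0.0446 and 0.314 CPM, so it passed the filter only with the KO libraries. STEAP3-AS1 overlaps STEAP3 on the opposite strand. With the strand setting not given, reads from the shared span cannot be told apart from those of STEAP3. THORLNC, with 12, 11 and 8 counts against 1, 9 and 2 counts, and CFAP221, with 1, 4 and 6 counts against 0, 1 and 0 counts, were too low to be tested. Between EN1 and STEAP3 the gene inside MARCO was the only other one tested.

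**Figure D2:**
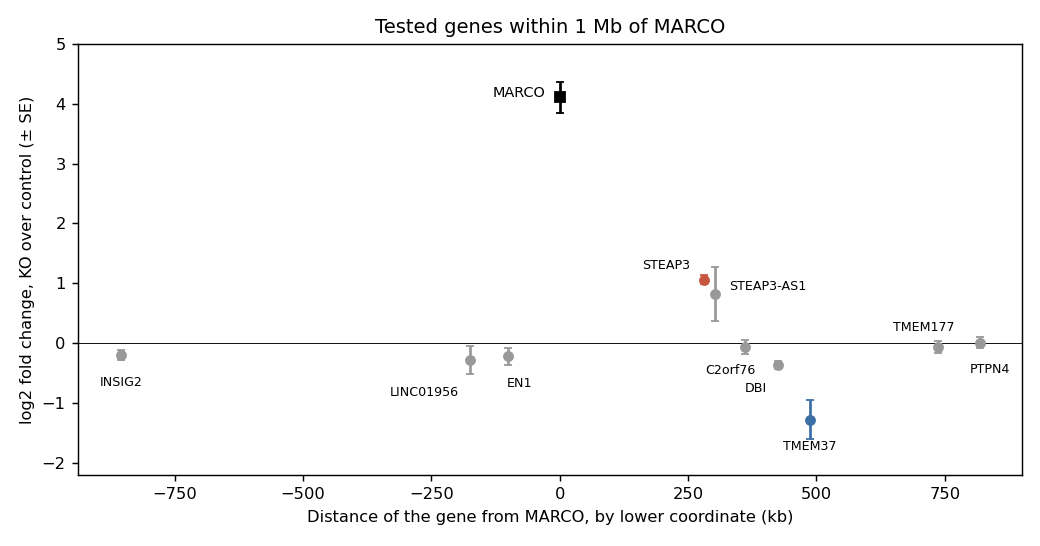
Log2 fold change (KO over control, ± SE) of MARCO and of the 10 tested genes within 1 Mb of it that had counts in the control group, by the distance of each gene in kb. MARCO at 4.11 (black square) stands above STEAP3 at 1.06 (red, called higher), TMEM37 at -1.28 is called lower (blue), and the 8 grey genes were not called.

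The genes whose pattern over the 6 libraries was nearest to that of MARCO were found by the Euclidean distance between log2 CPM profiles, each centred on its own mean, among tested genes of at least 1 CPM on average. TRPM2, a calcium-permeable cation channel, was the nearest at a distance of 1.18. It had 11, 12 and 8 counts against 95, 117 and 82 counts, with the lowest value of each group in the third replicate as for MARCO. CYP24A1, the hydroxylase that inactivates vitamin D, followed at 1.20, with 3, 6 and 3 counts against 40, 54 and 63 counts. RRAD, a small GTPase, was at 1.495, FPR1, the formyl peptide receptor of phagocytes, at 1.61 and IL33, an alarmin cytokine, at 1.69. Their log2 fold changes were 3.34 for TRPM2, 3.77 for CYP24A1, 2.83 for RRAD, 2.81 for FPR1 and 3.45 for IL33. The gap between the groups dominates such a distance, and 6 libraries cannot separate these genes any further. These genes were chosen by that distance, so their gap between the groups follows from the choice. CYP24A1 and RRAD were also under 0.419 CPM in all control libraries and, like MARCO, entered the comparison through the KO group. TRPM2, at 0.314 CPM in control replicate 3, and IL33, at 0.401 CPM in control replicate 1, missed that minimum in 1 control library each. They too passed the filter only with the KO libraries, whereas FPR1 passed on its control libraries alone.

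**Figure D3:**
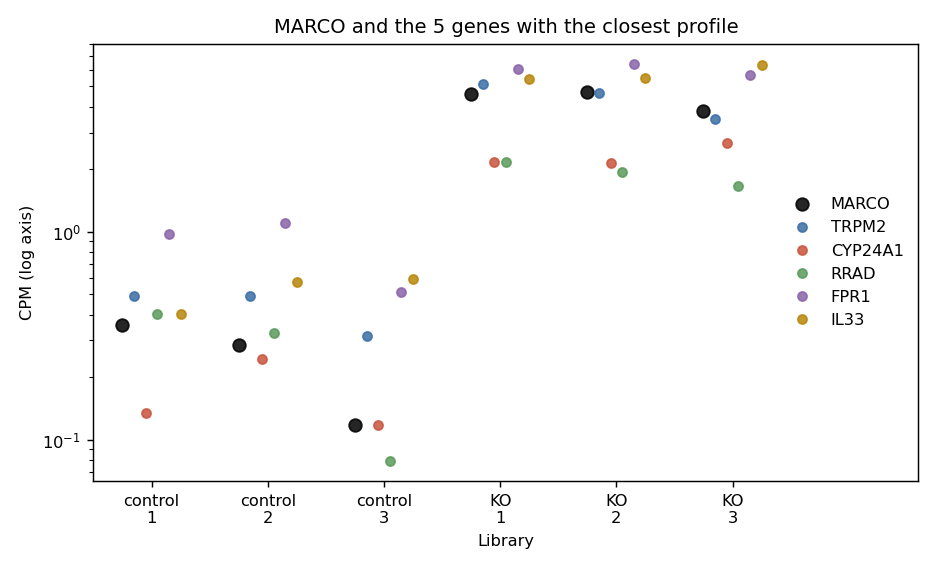
CPM on a log axis in each of the 6 libraries for MARCO and the 5 genes with the nearest profile, offset sideways for legibility. All 6 genes are lower in each control library than in each KO library, which follows from how the 5 were chosen. MARCO runs from 0.118 CPM in control replicate 3 to 4.72 CPM in KO replicate 2.

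A further 18 scavenger receptors were set beside the 10, and 12 of them were tested. Among these, 1 was called higher and 1 lower, near the 7.57% and 8.39% of all genes tested, and their median log2 fold change was -0.26. CLEC7A, the beta-glucan receptor dectin-1, was higher at 1.41 ± 0.453 and 2.47 ± 0.318 CPM (SD, n = 3). Its log2 fold change was 0.80 (SE 0.22), at an edgeR adjusted p of 0.00560. Without control replicate 2 this call was lost, at a log2 fold change of 0.57 and an adjusted p of 0.0548. LRP2, the endocytic receptor megalin, fell from 5.29 ± 0.397 to 3.49 ± 0.607 CPM, with a log2 fold change of -0.61 (SE 0.15) and an adjusted p of 0.00200. CD44, the hyaluronan receptor, and LRP1, a large endocytic receptor, were named after their values were seen. CD44 was at 1904 ± 108 and 2436 ± 145 CPM, with a log2 fold change of 0.36 (SE 0.075) and an adjusted p of 0.000512, and LRP1 had 0.35 (SE 0.092) and an adjusted p of 0.00467. Both lay under the fold threshold, but CD44 was called without control replicate 1 and without KO replicate 2, at 0.39 each. LRP1 was called without control replicate 1, at 0.39, and without KO replicate 3, at 0.47. CD163, the haemoglobin scavenger receptor of macrophages, and CD6 had 0 counts in all libraries.

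Of 16 tested partners of CD36 and SCARB1 in lipid uptake and storage, 8 were called lower, beside 8.39% of all genes. A further 1 was called higher, beside 7.57%, and the median log2 fold change was -0.37. This list, like all the gene lists here, was drawn up with earlier results of these data known. Such counts are descriptions only. NPC2, which carries cholesterol out of the lysosome, was at 322, 329 and 330 CPM in the control libraries and at 208, 216 and 210 CPM in the libraries labelled FOXC1 KO. Its log2 fold change was -0.63 (SE 0.066), with an adjusted p of 1.42e-08. FABP4, a fatty acid binding protein, had a log2 fold change of -1.81 (SE 0.22) and an adjusted p of 1.56e-07, from 2.995 ± 0.463 to 0.863 ± 0.147 CPM (SD, n = 3). PLIN2, a coat protein of lipid droplets, had -0.44 (SE 0.067). PPARG, a nuclear receptor known to activate CD36 and FABP4, had -0.45 (SE 0.069), from 124 ± 2.996 to 90.6 ± 2.47 CPM (SD, n = 3), with an adjusted p of 1.04e-05. Chosen after their values were seen, NPC1, ACSL1, LPL and FABP5 were the remaining lower genes, with log2 fold changes from -0.65 to -0.43. Of these, NPC1 lost its call without KO replicate 3 (-0.36), ACSL1 without KO replicate 2 (-0.38) and FABP5 without KO replicate 1 (-0.37). APOE, the only one higher, had under 1 CPM in both groups. Its control replicates 1 and 3 were at 0.312 and 0.314 CPM, under the 0.419 CPM minimum, so it passed the filter only with the KO libraries. It lost its call with DESeq2, at a log2 fold change of 0.96 and an adjusted p of 0.201. With no filter on low counts the call was also lost, at an edgeR adjusted p of 0.0714. The same held, at 0.84 to 0.93, without control replicate 1, control replicate 3, KO replicate 2 or KO replicate 3.

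Lysosomal genes, among which SCARB2 belongs by location, split at 3 lower and 2 higher of 15 tested, beside 8.39% and 7.57% of all genes, with a median log2 fold change of -0.19. The lower genes were HEXA, a hexosaminidase subunit, at -0.68 (SE 0.074), and the cathepsins CTSL at -0.57 (SE 0.067) and CTSB at -0.44 (SE 0.070). LGMN, a lysosomal protease, was higher at 0.43 (SE 0.078). GLA, an alpha-galactosidase named after its values were seen, was also higher, at 0.38 (SE 0.073). Without control replicate 2 neither LGMN nor GLA was called, at 0.38 and 0.32, and GLA was also lost without KO replicate 1, at 0.35, with library size alone, at 0.37, and with no filter on low counts, at 0.38.

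Of the pattern recognition genes, which cooperate with scavenger receptors in the sensing of microbes, 2 were called higher and 1 lower of 14 tested, near the 7.57% and 8.39% of all genes, with a median log2 fold change of -0.02. TLR4, the receptor for lipopolysaccharide, was at 96.6, 105.02 and 106 CPM in the control libraries and at 62.4, 55.3 and 63.9 CPM in the KO libraries. Its log2 fold change was -0.76 (SE 0.076), with an adjusted p of 5.37e-09. CD14, the lipopolysaccharide co-receptor, was higher at 0.62 (SE 0.14), with an adjusted p of 0.00129, and TICAM1, an adaptor of TLR signalling, was higher at 0.43 (SE 0.11). TICAM1 was not called without control replicate 2 or without KO replicate 2, at 0.35 and 0.31.

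**Figure D4:**
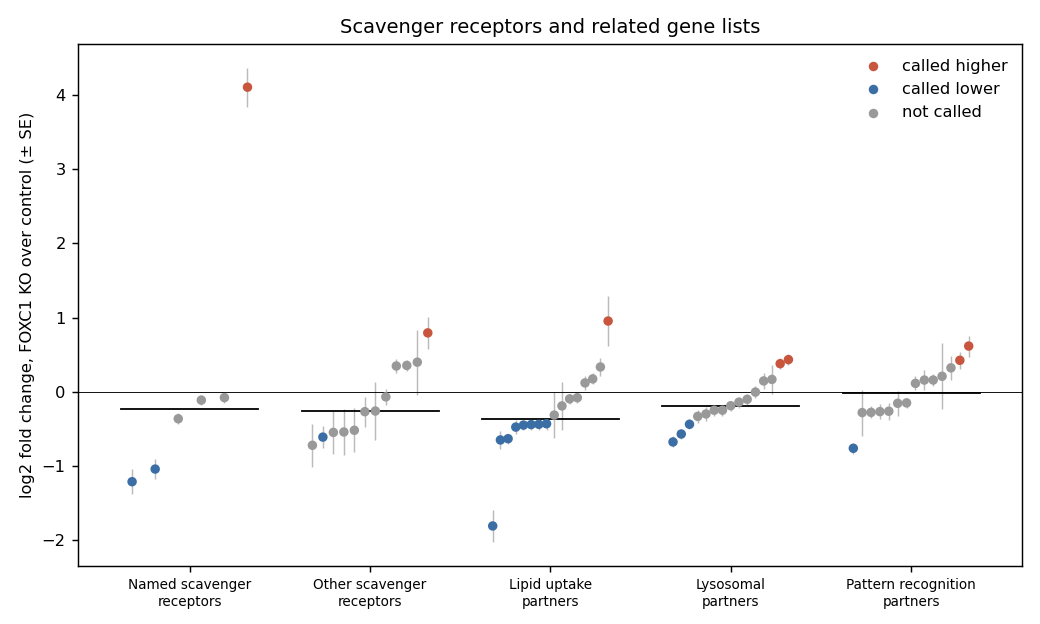
Log2 fold change (KO over control, ± SE) of the tested genes of the named scavenger receptors and 4 related lists, with 1 point per gene, red for called higher, blue for called lower and grey for not called. Horizontal black lines are list medians, from -0.37 in the lipid uptake partners to -0.017 in the pattern recognition partners, and MARCO at 4.11 lies above every other gene plotted.

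MARCO and MSR1 are known from macrophages, so a list of 17 macrophage markers was read in the same libraries. Of these, 6 were tested, 3 were called higher, beside 7.57% of all genes tested, 1 was called lower, beside 8.39%, and 6 had 0 counts in all libraries, CD163 among them. PTPRC, which marks all leukocytes, had 3, 3 and 4 counts against 8, 6 and 9 counts, and LYZ had at most 1 count in any library. CSF1R, the receptor of macrophage colony stimulating factor, was at 0.981, 1.11 and 1.297 CPM in the control libraries and at 5.54, 6.14 and 6.24 CPM in the libraries labelled FOXC1 KO. Its log2 fold change was 2.40 (SE 0.17), with an adjusted p of 4.01e-12. LAPTM5 was higher at 1.19 (SE 0.17) and CD14 at 0.62, whereas ADGRE1 was lower at -1.06 (SE 0.15). The summed level of the list was 18.3 to 22.4 CPM in the control libraries and 24.8 to 26.6 CPM in the KO libraries. Group means rose from 1.13 to 5.98 CPM for CSF1R, from 2.03 to 4.57 CPM for LAPTM5 and from 3.52 to 5.38 CPM for CD14. ADGRE1 fell from 8.16 to 3.85 CPM, and ITGAM and ITGAX were not called. The higher sum therefore reflects 3 genes and not the list as a whole. The macrophage markers moved together with MARCO in part, and their part in its level was not tested.

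For STAB1, a list of 9 endothelial markers was read, of which 8 matched a gene and 3 were tested, with 1 called higher and 1 lower, beside 7.57% and 8.39% of all genes tested. FLT1, a receptor of vascular endothelial growth factor, was lower at -1.70 (SE 0.19), with an adjusted p of 5.45e-08. CDH5, the endothelial cadherin, had 0, 0 and 1 counts in the control libraries and 18, 18 and 26 counts in the KO libraries, a ratio of 66.7 with an exact 95% counting interval of 11.5 to 2678. That ratio rests on the 1 count of control replicate 3, since the other control libraries were at 0, and CDH5 entered the comparison through the KO group only. Its fitted log2 fold change moved from 5.60 to 7.41 without control replicate 3, where all remaining controls were at 0 and a fitted value is no bound. VWF had 3 to 7 counts in every library. The summed level was 4.09 to 4.37 CPM in the control libraries and 2.76 to 3.15 CPM in the KO libraries. FLT1 alone, with means of 3.45 CPM in the control group and 1.06 CPM in the KO group, made up most of the control sum. The lower sum therefore reflects FLT1 and not the list as a whole.

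Of 13 markers for an urothelial carcinoma line, 7 were tested and 5 were called lower in the libraries labelled FOXC1 KO, beside 8.39% of all genes tested, with none higher. KRT19 had a log2 fold change of -0.70 (SE 0.081), KRT8 of -0.60 (SE 0.086), KRT18 of -0.51 (SE 0.078) and GATA3 of -0.42 (SE 0.085), the last not called without KO replicate 1, at -0.37. EPCAM, named after its values were seen, had -0.86 (SE 0.21). The list did not move as a whole. VIM, KRT7 and TP63, also named after their values were seen, had a log2 fold change of 0.30 (SE 0.069) with an adjusted p of 0.00137 and under the fold threshold for VIM, of -0.07 (SE 0.078) for KRT7, and counts of 1, 1 and 1 against 4, 9 and 5, too few to be tested, for TP63. The part of these genes in the differences of the receptors was not tested.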

How the data were processed

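The authors aligned the paired reads to hg19 with STAR and assigned them to GENCODE genes with featureCounts of Subread, and deposited a table of raw counts per gene and library, with no pooling. Tool versions and the settings for strand and for reads with several matches are not given in the sources used here, so counts of overlapping, antisense or near-identical genes are uncertain. All 57820 rows named a gene, and 0 columns belonged to other samples. Groups came from the sample titles.

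The receptors and the gene lists were chosen with earlier results of these data known. Symbols and coordinates came from GENCODE 44 on GRCh37, which matched 55538 identifiers (96.05%). With edgeR 4.0.16 in R 4.3.3, filterByExpr kept 15647 genes, at a minimum of 0.419 CPM in 3 libraries, and counts were normalized with TMM. Differences between groups were tested by edgeR's quasi-likelihood F test in robust form, with no other term in the model and with Benjamini-Hochberg adjustment over all tested genes. Calls required an adjusted p below 0.05 together with more than 1.3-fold change, as in the study's methods. SEs were derived from the F statistic. The steps were tested on simulated data with 200 changed genes. CPM used the TMM-scaled library sizes and is given as mean ± SD. Counting intervals of ratios are exact conditional binomial intervals.

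Named were FOXC1, the 10 receptors, the 5 nearest profiles to MARCO, its neighbours within 1 Mb with at least 10 counts in all, at most 4 called genes per list by smallest p, and defining macrophage and endothelial markers. Some results are not reported here. The alternatives were DESeq2 1.42.0, which the study used, size factors by RLE, unscaled library totals, no filter, no fold threshold, a replicate block and leaving out each library in turn. Deviations of same-numbered libraries from their group means had correlations of -0.040, -0.13 and 0.073, so the numbers were not taken as pairs. Chi-square values per gene between replicates were 2.95 to 10.1, above sampling noise.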

Additional observations from a re-analysis of the deposited data

How the results depend on the processing

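Under all alternatives run MARCO was called higher, SCARA3 and CD36 were called lower, and SCARB2 and OLR1 were not called, with log2 fold changes of 3.75 to 4.404 for MARCO, -1.24 to -0.94 for SCARA3 and -1.24 to -1.19 for CD36. SCARB1 lay between -0.43 and -0.27 when libraries were left out in turn and was called at 3 of those values. With no fold threshold SCARB1 was called lower too. Of the 18 other scavenger receptors, 2 were called higher with no filter on low counts and 3 with no fold threshold, and 0 to 3 when libraries were left out in turn, with 0 without control replicate 2 and 3 without control replicate 1. With a replicate block 2 were called lower, and 1 to 2 when libraries were left out, with 2 without control replicate 1. Over all genes the replicate block called 1200 higher and 1351 lower, and DESeq2 called 1041 higher and 994 lower. The log2 fold change of PTPN4 lay on both sides of 0, from -0.047 to 0.064 when libraries were left out in turn, at -0.036, -0.0038 and -0.047 without control replicate 1, control replicate 2 and KO replicate 3. The causes of these changes were not tested. Among the remaining named genes, 499 of the values recomputed kept their direction and call and 27 did not. With 18 counts in the control group, the size of the MARCO difference is limited by counting, and MSR1, SCARA5, COLEC12 and STAB1 did not pass the filter on low counts. The gene inside MARCO had no value with DESeq2 or without KO replicate 2.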
